A study of Mus musculus with 6 samples.

Results

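A set of 43 genes, of the 23282 entries in the count tables, was high in WAS replicates 1 and 3 and lower in each of the other 4 libraries of mouse forebrain. The genes were selected on the measured values of these libraries. Levels were taken as CPM, the count scaled to a library total of 1e6, and a gene was taken if its CPM in both WAS replicates 1 and 3 was at least 2 and at least 2 times the highest CPM among WAS replicate 2 and the 3 control libraries. Slc6a3, En1, Ddc, Th, Shox2, Gata2, Gata3, Tal1, Tcf7l2, Lef1, Gbx2, the glycine receptor genes Glra1, Glra2 and Glra3 and the Lhx genes had been set aside by name. Of 54 entries that met the thresholds, 11 were left out for that reason. The values that chose the genes are therefore given as a description, without a test.

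Polyadenylated RNA of 1 forebrain hemisphere per mouse was measured by QuantSeq 3′ mRNA sequencing. Adult male C57BL/6J mice stood for 1 h on a small platform surrounded by water in the water avoidance stress (WAS) group (3 libraries), or on that platform in a container without water in the control group (3 libraries). All 6 mice were thus confined to a platform, were killed directly afterwards and had the olfactory bulbs and cerebellum removed. Each library is labelled as a separate biological replicate. The library totals lay between 9248520 and 10502029 counts, so that 2 CPM corresponded to 18.5 to 21.0 counts. Inside the count tables the headings read WC for the libraries labelled WAS and WS for those labelled control, and the gene table that accompanies the study runs in the opposite direction to the sample labels. The labels of the groups may therefore be exchanged, and every direction between WAS and control given here holds for the libraries as labelled.

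The identity of a brain region is set during development by transcription factors, of which the homeodomain proteins are the best known, and many of these factors stay on in the adult neurons of the region they patterned. Engrailed, Iroquois, Barhl, Ebf and AP-2 family genes are known from the midbrain and the neighbouring diencephalon, and the adult cortex and striatum express most of them little. Subcortical glutamatergic neurons differ from cortical ones in the vesicular transporter they use, VGLUT2 in place of VGLUT1.

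The 43 genes summed to 839, 192 and 703 CPM in WAS replicates 1, 2 and 3, and to 228, 146 and 206 CPM in control replicates 1, 2 and 3. WAS replicate 2, which the rule caps as it does the controls, lay at 0.995 times their mean, while WAS replicates 1 and 3 lay at 4.34 and 3.64 times it. Gene by gene, the mean CPM of WAS replicates 1 and 3 was 2.35 to 16.3 times the mean of the other 4 libraries, with a median of 4.51. Most of the genes were of low abundance. The mean CPM in WAS replicates 1 and 3 was under 5 for 19 genes, between 5 and 20 for 16 genes and at least 20 for 8 genes. The genes were not absent elsewhere, since only 6 of the 43 genes had no count in 1 or more of the other 4 libraries. In bulk tissue a smaller number of cells of a type and less RNA per cell cannot be told apart, and this holds for every value below.

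**Figure D1:**
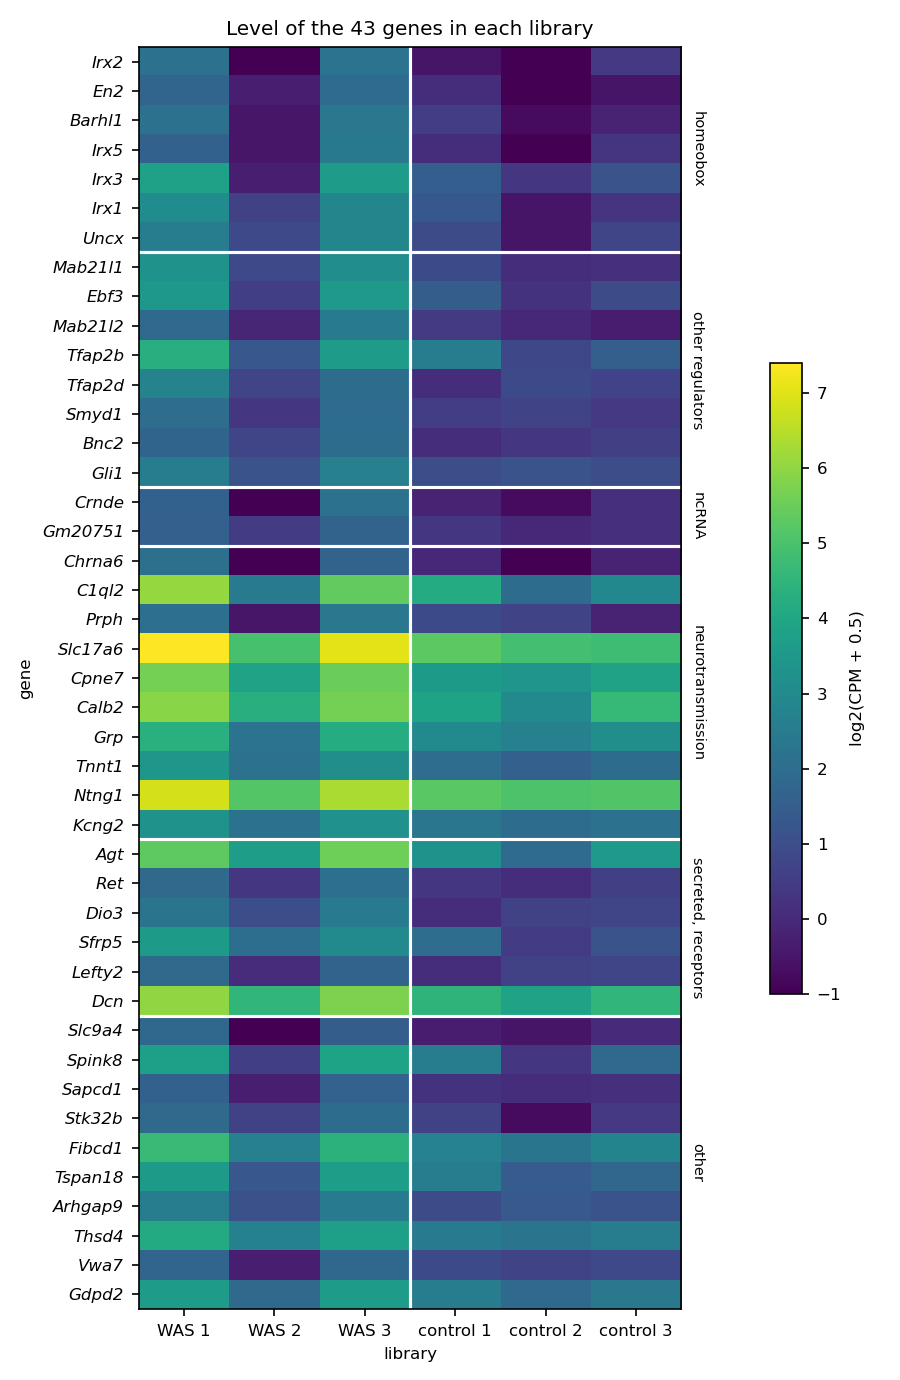
Level of each of the 43 genes (lines, grouped by role) in each of the 6 libraries (columns), as log2(CPM + 0.5). WAS replicates 1 and 3 are brighter than the other 4 libraries for each gene, which is how the genes were chosen. WAS replicate 2 looks like the control libraries, which the rule caps in the same way. The role groups were formed after the genes were known.

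Of the role groups, the homeobox genes had the highest median ratio. There were 7 of them, and the mean CPM in WAS replicates 1 and 3 was 5.86 to 16.3 times that of the other libraries, with a median of 9.93. Promoter sequences of 3 of the homeobox genes, Irx2, Uncx and Barhl1, are shown here, and the promoters of Slc17a6 because it had the highest counts of the set. Many homeodomain proteins, though not all, bind AT-rich cores such as TAATTA. A match in these promoters, or its absence, describes letters only. The sequences are from RefSeq (GRCm38.p6), and each covers 250 bases before to 50 after an annotated start. Capitals mark TAATTA, which reads the same on both strands, and GGGCGG or its complement CCGCCC, the GC box.
Irx2 promoter, chr13:72628570-72628869, plus strand: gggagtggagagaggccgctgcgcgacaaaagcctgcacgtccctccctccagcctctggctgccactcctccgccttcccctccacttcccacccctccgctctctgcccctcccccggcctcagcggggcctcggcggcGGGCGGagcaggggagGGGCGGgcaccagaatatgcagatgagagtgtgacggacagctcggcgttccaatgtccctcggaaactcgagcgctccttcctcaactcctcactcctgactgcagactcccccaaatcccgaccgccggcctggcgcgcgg
Uncx promoter, chr5:139543648-139543947, plus strand: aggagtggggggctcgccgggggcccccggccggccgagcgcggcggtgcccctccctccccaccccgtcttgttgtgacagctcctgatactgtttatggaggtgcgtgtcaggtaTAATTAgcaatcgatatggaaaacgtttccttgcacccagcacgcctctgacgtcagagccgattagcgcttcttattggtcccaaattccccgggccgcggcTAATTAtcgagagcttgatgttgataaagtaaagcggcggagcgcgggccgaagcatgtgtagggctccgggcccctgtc
Barhl1 promoter, chr2:28916619-28916918, minus strand: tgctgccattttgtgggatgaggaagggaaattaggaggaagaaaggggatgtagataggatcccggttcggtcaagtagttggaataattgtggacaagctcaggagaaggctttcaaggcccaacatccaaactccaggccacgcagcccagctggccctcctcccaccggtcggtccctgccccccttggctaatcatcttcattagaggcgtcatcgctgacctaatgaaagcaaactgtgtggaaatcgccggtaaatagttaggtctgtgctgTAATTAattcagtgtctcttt
Slc17a6 upstream promoter, chr7:51621580-51621879, plus strand: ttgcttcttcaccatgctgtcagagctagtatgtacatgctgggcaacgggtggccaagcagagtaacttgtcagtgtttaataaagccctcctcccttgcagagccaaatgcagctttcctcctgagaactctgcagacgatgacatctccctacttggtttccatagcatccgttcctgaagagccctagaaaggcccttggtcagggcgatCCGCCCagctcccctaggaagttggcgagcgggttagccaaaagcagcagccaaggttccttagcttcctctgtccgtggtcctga
Slc17a6 downstream promoter, chr7:51624387-51624686, plus strand: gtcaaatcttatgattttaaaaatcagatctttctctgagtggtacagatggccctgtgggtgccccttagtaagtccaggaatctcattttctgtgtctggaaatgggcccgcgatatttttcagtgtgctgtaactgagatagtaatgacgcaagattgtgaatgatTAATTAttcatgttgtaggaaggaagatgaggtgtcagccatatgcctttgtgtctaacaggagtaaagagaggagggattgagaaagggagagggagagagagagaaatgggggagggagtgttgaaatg
The Uncx promoter held 2 copies of TAATTA, the Barhl1 promoter shown and the downstream Slc17a6 promoter 1 each, and the Irx2 promoter none beside its 2 GC boxes. A second Barhl1 promoter (chr2:28912446-28912745, minus strand), not shown, held none, and the Irx3 promoter (chr8:91801605-91801904, minus strand), not shown, held neither TAATTA nor a GC box.

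The Iroquois genes, homeodomain factors that pattern the neural tube and lie in a pair of genomic clusters, gave 4 of the 43 genes. Irx3 had 137, 3 and 119 counts in WAS replicates 1, 2 and 3 and 25, 8 and 17 counts in control replicates 1, 2 and 3. Irx1 had 81, 10 and 68 counts in the WAS libraries and 21, 2 and 7 in the controls. Irx2 had 40, 0 and 41 counts against 2, 0 and 8, and Irx5 had 26, 2 and 48 counts against 6, 0 and 7. In each of the 4 genes WAS replicate 2 fell within or below the range of the controls, and for Irx3 it was the lowest of the 6 libraries. The remaining Iroquois genes, Irx4 and Irx6, had at most 3 and 4 counts in any library, a level at which no difference was detectable.

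En2, an engrailed factor of the midbrain and the midbrain-hindbrain boundary, had 29, 3 and 33 counts in the WAS libraries and 6, 0 and 2 in the controls. Barhl1, a homeodomain factor of midbrain and diencephalic neurons, had 39, 2 and 45 counts against 10, 1 and 4. Uncx, a paired-type homeodomain factor, had 54, 12 and 67 counts against 15, 2 and 12. For all 3 genes WAS replicate 3 exceeded WAS replicate 1, the reverse of Irx3 and Irx1. The last 500 bases of the Uncx transcript share a stretch of 50 bases or more with transcripts of 264 other genes, and since multiple alignments were counted its values are uncertain.

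Among the other regulators, Mab21l1, which encodes a protein of the male-abnormal-21 family needed for eye development, had the highest ratio of the lower of WAS replicates 1 and 3 to the highest of the other libraries, 6.16. Its counts were 96, 12 and 82 in the WAS libraries and 14, 6 and 6 in the controls. Its relative Mab21l2 had 32, 4 and 51 counts against 9, 5 and 3. Each of these genes lies inside a larger gene on the opposite strand, Nbea and Lrba respectively. Nbea had 3252, 2795 and 3065 counts in the WAS libraries and 3364, 3533 and 3253 in the controls, without the pattern of Mab21l1. Lrba had 252, 259 and 248 counts against 293, 210 and 237, without that of Mab21l2.

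Ebf3, a helix-loop-helix factor of the early B cell factor family that acts in neuronal differentiation, had 107, 9 and 113 counts in the WAS libraries and 24, 7 and 14 in the controls. The AP-2 factor Tfap2b had 192, 18 and 119 counts against 57, 13 and 24, and its neighbour Tfap2d had 64, 11 and 34 counts against 6, 14 and 11. The AP-2 genes were lower in WAS replicate 3 than in WAS replicate 1, by 1.60-fold for Tfap2b and 1.87-fold for Tfap2d. The control library nearest to WAS replicates 1 and 3 was not the same for both, since Tfap2b was highest in control replicate 1 and Tfap2d in control replicate 2.

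Gli1, the transcriptional activator and target of Hedgehog signalling, had 54, 16 and 58 counts in the WAS libraries and 16, 18 and 15 in the controls. Arhgap9 had 54, 15 and 49 counts against 15, 21 and 17. The ends of these genes overlap by 62 bases on opposite strands of chromosome 10, and their counts were nearly equal in every library. Whether the counting used strand is not given in the sources used here, so that the reads of Gli1 and Arhgap9 cannot be told apart. Bnc2, a zinc finger protein, had 28, 11 and 34 counts against 6, 8 and 10. Smyd1, a methyltransferase known from muscle, had 35, 7 and 33 counts against 10, 12 and 8, and it overlaps Krcc1 on the opposite strand, which had 364, 392 and 402 counts against 413, 350 and 374.

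The set held 2 long non-coding RNAs. Crnde, which starts 1504 bases from Irx5 and is transcribed away from it, had 26, 0 and 39 counts in the WAS libraries and 4, 1 and 6 in the controls. Like Irx5 it was higher in WAS replicate 3 than in WAS replicate 1. Gm20751, a long intergenic RNA, had 25, 8 and 27 counts against 8, 5 and 6.

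Genes of neurotransmission and neuron types included those with most counts. Slc17a6, which encodes VGLUT2, had 1710, 284 and 1339 counts in the WAS libraries and 402, 304 and 273 in the controls. Its CPM was 170 and 134 in WAS replicates 1 and 3, and between 27.4 and 38.3 in the other 4 libraries. Ntng1, which encodes the axonal adhesion protein netrin-G1, had 1176, 327 and 807 counts against 393, 342 and 345. Cpne7, a calcium-dependent phospholipid-binding copine, had 504, 127 and 458 counts against 120, 104 and 137. For these 3 genes the other 4 libraries lay within 1.5-fold of one another.

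Calb2, the calcium-binding protein calretinin of many interneurons and of thalamic and midbrain neurons, had 601, 173 and 498 counts in the WAS libraries and 149, 79 and 242 in the controls. Its control libraries spread from 7.61 to 24.3 CPM, and control replicate 3 was the nearest to WAS replicate 3. C1ql2, a secreted synaptic protein made by dentate granule cells, had 676, 45 and 412 counts against 185, 36 and 71. Here control replicate 1 stood well above WAS replicate 2 and the other controls, without reaching WAS replicate 3.

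Chrna6, the nicotinic receptor subunit typical of dopamine neurons, had 38, 0 and 27 counts in the WAS libraries and 5, 0 and 4 in the controls. Grp, gastrin-releasing peptide, had 201, 38 and 180 counts against 78, 60 and 85, so that WAS replicate 2 was below all 3 controls. Prph, the intermediate filament protein peripherin, had 37, 2 and 46 counts against 14, 12 and 4. Tnnt1, a troponin subunit also used as a marker of thalamus, had 105, 36 and 84 counts against 37, 26 and 34. Kcng2, a modifying subunit of potassium channels, had 96, 37 and 91 counts against 47, 36 and 39 and was the gene nearest to the threshold, with a ratio of 2.04.

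**Figure D2:**
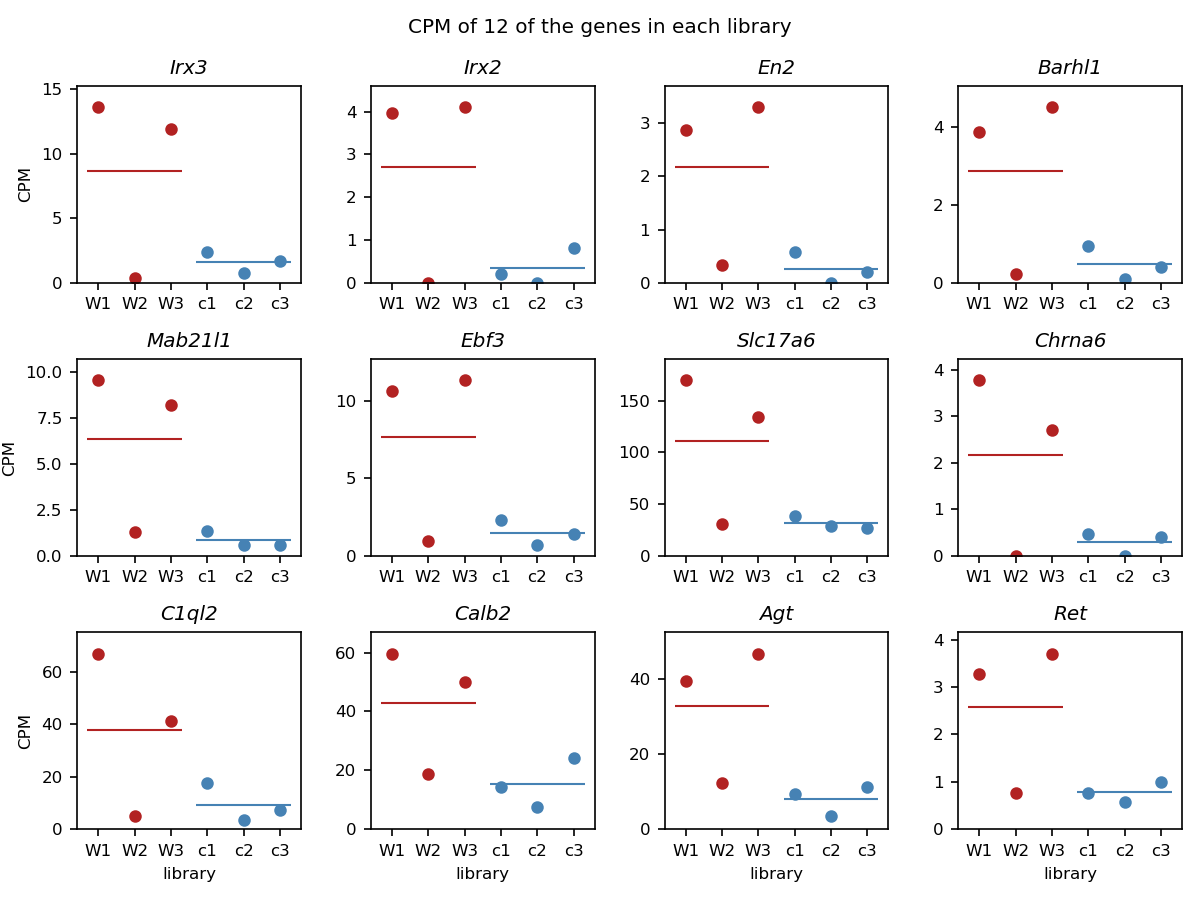
CPM of 12 of the genes (panels, each axis from 0) in WAS replicates 1 to 3 (W1 to W3, red) and control replicates 1 to 3 (c1 to c3, blue), with lines at the mean of each group of 3 libraries. In each panel WAS replicates 1 and 3 lie above the other libraries and the mean of the WAS group lies between WAS replicate 2 and the lower of WAS replicates 1 and 3.

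The secreted signals, hormone-related genes and receptors had ratios of means between 2.89 and 4.72. Agt, angiotensinogen, which astrocytes make in the brain, had 397, 115 and 468 counts in the WAS libraries and 99, 35 and 113 in the controls. Dcn, the matrix proteoglycan decorin, had 647, 210 and 528 counts against 229, 145 and 226. No other gene of the astrocyte or meningeal marker lists met the rule. Ret, the receptor for ligands of the GDNF family, had 33, 7 and 37 counts against 8, 6 and 10. Dio3, the deiodinase that inactivates thyroid hormone, had 42, 14 and 51 counts against 6, 11 and 12. Sfrp5, a secreted inhibitor of Wnt signalling, had 116, 33 and 77 counts against 37, 9 and 17, and Lefty2, a secreted inhibitor of Nodal signalling, had 33, 5 and 27 counts against 6, 11 and 12. For Dio3 and Sfrp5 WAS replicate 2 was 1.60 and 1.76 times the control mean, the latter being the highest such value in the set.

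Of the 10 genes with other functions, Fibcd1, a membrane receptor for acetylated compounds, had 259, 54 and 206 counts in the WAS libraries and 65, 45 and 65 in the controls. Spink8, a protease inhibitor of the Kazal type, had 129, 9 and 143 counts against 57, 8 and 32. Slc9a4, a sodium-proton exchanger, had 30, 0 and 23 counts against 3, 2 and 5. Fibcd1 and Spink8 are both known from the hippocampus, but their other libraries differed in kind, those of Fibcd1 being close together and those of Spink8 spreading from 0.771 to 5.43 CPM. Vwa7 and Sapcd1 overlap by 783 bases on opposite strands of chromosome 17. Vwa7 had 29, 3 and 30 counts against 14, 12 and 13, Sapcd1 had 26, 3 and 26 counts against 7, 6 and 6, and reads of this pair cannot be told apart. The kinase gene Stk32b, the phosphodiesterase gene Gdpd2, the tetraspanin gene Tspan18 and the matrix gene Thsd4 complete the set, with ratios of means of 4.42, 2.83, 3.82 and 2.91. Stk32b had 33, 10 and 34 counts in the WAS libraries and 11, 1 and 8 in the controls, and Gdpd2 had 118, 30 and 117 counts against 57, 33 and 47. Tspan18 had 117, 18 and 122 counts against 57, 23 and 29, and Thsd4 had 172, 56 and 129 counts against 52, 44 and 54. In the first 3 of these genes WAS replicates 1 and 3 were nearly equal. The end of Tspan18 shares a stretch with transcripts of 253 other genes, and its values are uncertain.

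Around the threshold, the lower of WAS replicates 1 and 3 was 2.04 to 2.14 times the highest of the other libraries for the 5 genes just inside (Kcng2, Calb2, Grp, Thsd4 and Tspan18). It was 1.94 to 2.00 times for the 5 genes just outside (Slc27a3, Slc6a11, Tanc1, Npy2r and Tacr3). The values run on across the threshold without a gap. At least 3 times the highest was reached by 21 genes and at least 4 times by 9. With a minimum of 1 CPM in place of 2 CPM the rule gave 58 genes. Those added included Rnase1 and B230323A14Rik, with 1.80 and 1.60 CPM in the lower library, and Pou4f2, Slc6a4, Foxb1 and Evx1. Of the genes set aside by name, En1, the other engrailed gene, had 124, 1 and 157 counts in the WAS libraries and 0, 0 and 0 in the controls, and Tcf7l2 had 2357, 388 and 1729 counts against 384, 214 and 383.

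The rule set a floor that both WAS replicates 1 and 3 had to pass but not the order between them. Of the 43 genes, 23 were higher in WAS replicate 1 and 20 in WAS replicate 3, the median log2 ratio of replicate 1 to replicate 3 was 0.07, and it ranged from -0.90 to 0.90. Over the 12528 tested genes with at least 2 CPM in both libraries the median was 0.01 and the SD 0.35, beside an SD of 0.37 over the 43 genes. Since the common floor bounds the ratio, these values are a description. Within 1.5-fold lay 37 of the 43 genes, and the other 6 were Irx5, Crnde and Mab21l2, higher in replicate 3, and Tfap2d, C1ql2 and Tfap2b, higher in replicate 1. Genes are not independent replicates, and these values describe 1 mouse against 1 mouse.

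**Figure D3:**
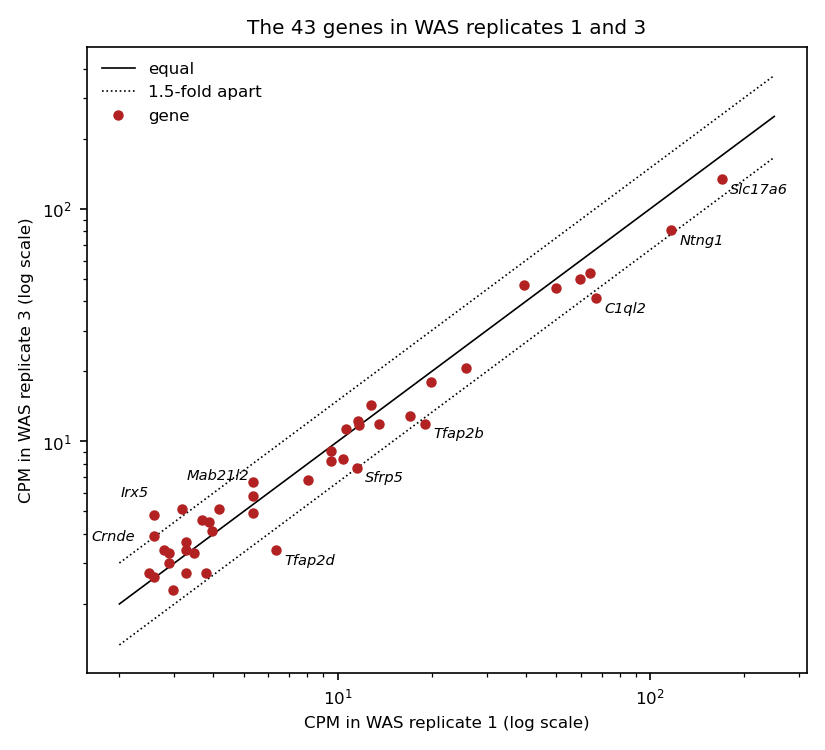
CPM of each of the 43 genes (points) in WAS replicate 1 (x axis) and WAS replicate 3 (y axis), both on log scales, with the line of equality and dotted lines 1.5-fold to either side. The points follow the line of equality, and 37 of the 43 lie between the dotted lines.

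The rule also did not set the order among the other 4 libraries. The highest of these 4 was control replicate 1 for 20 genes, WAS replicate 2 for 10, control replicate 3 for 9 and control replicate 2 for 4. The lowest was control replicate 2 for 26 genes and WAS replicate 2 for 12. Control replicate 2 was below control replicate 1 for 36 of the 43 genes and below control replicate 3 for 36. WAS replicate 2 lay within the range of the controls for 23 genes, below it for 10 and above it for 10, and its median ratio to the control mean was 0.970. The rule caps all 4 of these libraries alike, so that WAS replicate 2 is near the controls in these genes in part by selection, and nothing is read from it about that library. The controls were uneven in these genes, with a summed level of 193 ± 42.6 CPM (SD, n = 3). Relative to the mean of the 4 libraries, the median gene was at 0.977 in WAS replicate 2, 1.22 in control replicate 1, 0.746 in control replicate 2 and 1.06 in control replicate 3.

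**Figure D4:**
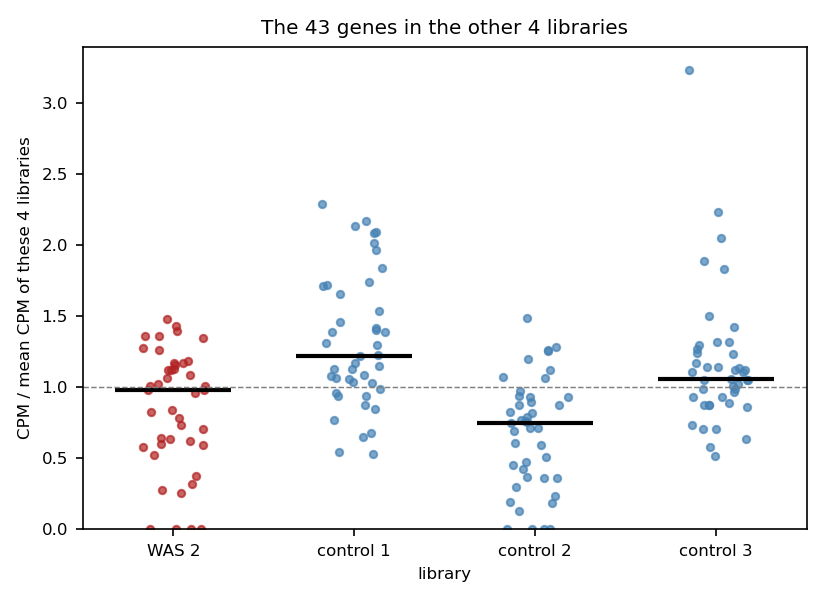
CPM of each of the 43 genes (points) in WAS replicate 2 and in control replicates 1 to 3, divided by the mean of these 4 libraries, with a thick line at the median over genes and a dashed line at 1. Points are spread sideways at random for display. The median is highest in control replicate 1 (1.22) and lowest in control replicate 2 (0.746).

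Of 13645 entries with at least 2 CPM in any library, 15.1% were higher in both WAS replicates 1 and 3 than in every other library, and 9.88% were lower in both. The rule itself, with its ratio and minimum, was met by 0.185% of all entries. Marker lists for brain regions and cell types, chosen with earlier results of these data known, were read beside these shares, and 22 of the 43 genes were in a list. The 43 genes are higher in both libraries by selection, so the counts and sums of the lists that held any of them are given without them. A gene that reached 2 CPM in WAS replicate 1 or 3 alone was counted too, in the lists and in the shares over all entries. The counts of genes higher in both are therefore a description. Over all entries the median log2 ratio of the mean of WAS replicates 1 and 3 to the mean of the other libraries was 0.02.

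The list of regulators of midbrain tectum and tegmentum held 9 of the genes, the largest number in a list (Barhl1, Ebf3, Irx1, Irx2, Irx3, Irx5, Mab21l2, Tfap2b and Tfap2d). Of its 9 other genes at 2 CPM or more, 4 were higher in both libraries and none was lower in both. Without the 43 genes it summed to 124, 93.6 and 121 CPM in the WAS libraries and to 98.6, 74.5 and 86.2 CPM in the controls. Its 2 most abundant genes, Nkx6-2 and Ebf1, had 677, 529 and 640 counts and 229, 218 and 212 counts in the WAS libraries, and 636, 552 and 577 and 174, 174 and 154 in the controls, and neither met the rule. The POU class 4 and Iroquois list held 2 other genes at 2 CPM or more, of which 1 was higher in both libraries. These were Pou4f2, a factor of retinal and tectal neurons, with 26, 0 and 14 counts against 2, 0 and 0, and Pou4f1, with 69, 1 and 34 counts against 43, 4 and 14, which was higher in control replicate 1 than in WAS replicate 3. Pou4f2 reached 2 CPM in WAS replicate 1 alone and so entered the count through a library in which it was high.

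The list of midbrain dopamine neurons held 3 of the genes, En2, Ret and Chrna6, and 8 of its 10 other genes at 2 CPM or more were higher in both libraries. Without the 3 genes it summed to 540, 308 and 607 CPM in the WAS libraries and to 275, 233 and 357 CPM in the controls. Most of this sum came from Nr4a2, a nuclear receptor also expressed in cortex, with 2901, 1338 and 2797 counts against 1521, 1592 and 1450, and from Dlk1, with 1350, 723 and 1812 counts against 453, 120 and 1308. Of the defining factors, Lmx1b had 0 counts in all 6 libraries and Pitx3 and Foxa1 at most 1 and 4. Of the defining genes that the rule had set aside, Slc6a3, the dopamine transporter, had 107, 0 and 100 counts against 0, 3 and 3, and Th, the enzyme of dopamine synthesis, had 75, 43 and 146 counts against 13, 19 and 34. The isthmus and hindbrain list held En2 alone, 11 of its 32 genes had no count in any library, and without En2 its sums were 60.5, 79.4 and 58.1 CPM against 76.6, 73.5 and 64.0 CPM.

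The hippocampus list held C1ql2, Fibcd1 and Spink8, and 3 of its 6 other genes at 2 CPM or more were higher in both libraries. Without the 3 genes it summed to 175, 142 and 168 CPM in the WAS libraries and to 155, 104 and 124 CPM in the controls. Its gene with most counts, Zbtb20, had 85.4, 69.5 and 86.1 CPM against 82.0, 55.8 and 62.9 CPM. The habenula list held Irx2 and Calb2, and 1 of its 7 other genes at 2 CPM or more was higher in both. Without Irx2 and Calb2 it summed to 383, 251 and 378 CPM in the WAS libraries and to 254, 238 and 241 CPM in the controls, mostly from Nr4a2. Of its less abundant genes, Tac2 had 49, 85 and 65 counts against 82, 59 and 79, and Chrnb4 had 7, 2 and 1 counts against 11, 1 and 5, without the pattern of the set.

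The thalamus list held Slc17a6, Ntng1 and Tnnt1. Without these 3 genes the sums were 923, 959 and 971 CPM and 942, 929 and 895 CPM, and the libraries overlapped. Its most abundant genes, Rora and Pdp1, had 2511, 1863 and 2358 counts and 1912, 2840 and 2579 counts in the WAS libraries, and 2120, 2244 and 1960 and 3344, 3231 and 2628 in the controls. Of the other 16 genes, 7 were higher in both libraries, Rora among them, and 2 were lower in both.

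Agt was the sole astrocyte gene among the 43, and 5 of the other 9 genes of its list were higher in both libraries and 1 was lower in both. Without Agt the list summed to 4747, 4733 and 4897 CPM in the WAS libraries and to 4622, 4645 and 4671 CPM in the controls, and of its most abundant genes Slc1a2 had 26554, 25868 and 26583 counts in the WAS libraries and 28668, 30114 and 28281 in the controls, and Aldoc 8214, 6398 and 8157 against 7341, 6425 and 6206. Dcn was the sole meningeal gene, and 3 of the other 10 were higher in both. Without Dcn the meningeal list summed to 2388, 1666 and 2619 CPM in the WAS libraries and to 1748, 1274 and 1709 CPM in the controls, mostly from Ptgds, with 22570, 14144 and 24451 counts against 17007, 12303 and 15637. The blood list summed to 2442, 1908 and 3223 CPM against 1718, 1896 and 2254 CPM and held none of the genes. Of its 7 genes 5 were higher in both libraries and 0 lower in both. The same numbers were 8 and 0 of 18 immediate early genes and 5 and 0 of 14 oligodendrocyte genes. They were 7 and 2 of the 11 neurofilament genes without Prph. Prph was the sole gene of the neurofilament list and of the list of cholinergic neurons, and Chrna6 of the nicotinic receptor list, in which Chrna4 had 469, 213 and 325 counts against 264, 215 and 237. Barhl1 was the sole gene of the cerebellum list, which without it summed to 326, 325 and 323 CPM against 303, 294 and 296 CPM. The oligodendrocyte, microglia, endothelium, serotonin, noradrenaline, glycine, hypothalamus, pituitary, olfactory bulb and interneuron lists held none of the 43.

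In the opposite direction, the 12 striatal genes at 2 CPM or more were all lower in both WAS replicates 1 and 3 than in every other library. The striatum list summed to 248, 2444 and 505 CPM in the WAS libraries and to 1245, 1566 and 1700 CPM in the controls. Its most abundant gene, Ppp1r1b, which encodes DARPP-32, had 404, 5569 and 1162 counts against 2890, 3984 and 4121. WAS replicate 2 was above the controls in this list and WAS replicates 1 and 3 were below them. Under the mirrored rule 28 genes were low in both libraries. The list of cortical projection neurons summed to 9859, 11044 and 8734 CPM against 12594, 13391 and 11467 CPM, and the choroid plexus list to 334, 1744 and 1407 CPM against 1825, 311 and 1408 CPM, which separated WAS replicates 1 and 3 from each other. Without the 43 genes, the sums of both midbrain lists were thus higher in WAS replicates 1 and 3 than in every other library. So were those of the POU class 4 and Iroquois, hippocampus, habenula, meninges, blood, astrocyte, neurofilament and nicotinic receptor lists. Those of the striatum, cortical, forebrain interneuron, microglia and isthmus and hindbrain lists were lower, and their part in the result was not tested. The lists are not independent, since the POU class 4 and Iroquois list lies within that of tectum and tegmentum regulators. Nr4a2, which is also in the dopamine list, gave most of the habenula sum, and the separation of that sum rests on it. The astrocyte margin was small, with 4747 CPM in WAS replicate 1 beside 4733 CPM in WAS replicate 2. The interneuron list summed to 1048, 1165 and 1014 CPM against 1229, 1230 and 1074 CPM, and the microglia list to 343, 408 and 346 CPM against 382, 365 and 409 CPM. In the remaining lists WAS replicates 1 and 3 overlapped the other libraries, the hypothalamus list summing to 148, 379 and 187 CPM against 161, 168 and 347 CPM.

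**Figure D5:**
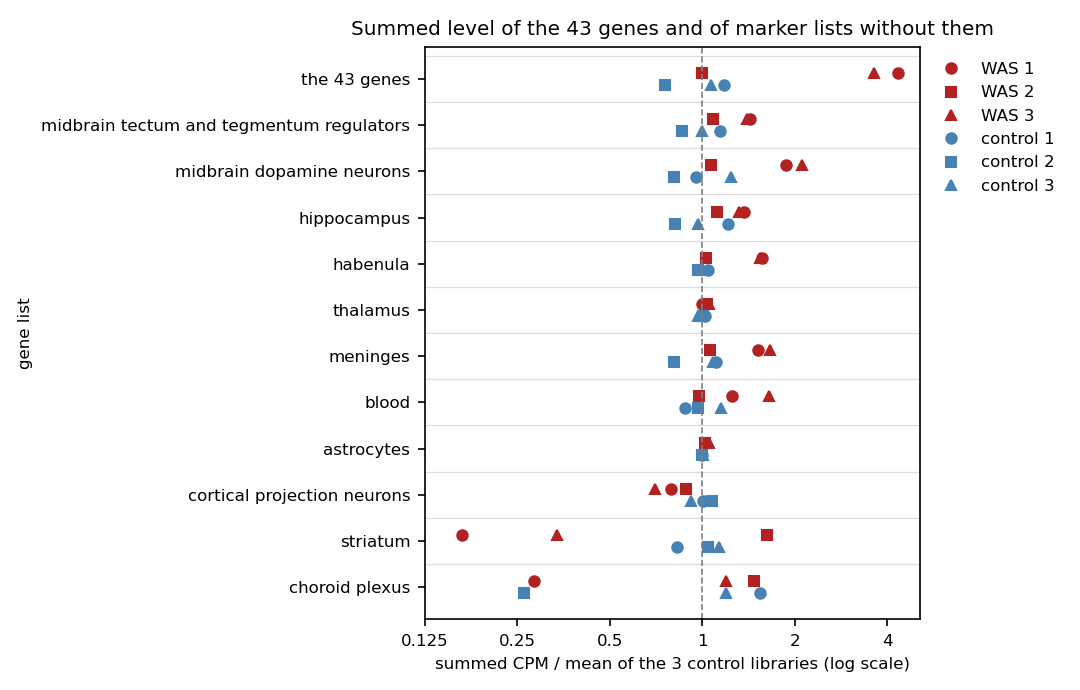
Summed CPM of the 43 genes, and of 11 marker lists without any of the 43, in each library, divided by the mean of the 3 control libraries, on a log scale, with WAS libraries in red, control libraries in blue and the replicate number given by the marker. WAS replicates 1 and 3 lie at 4.34 and 3.64 for the 43 genes and at 0.165 and 0.336 for the striatum list, while WAS replicate 2 lies at 0.995 and 1.63.

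In the comparison of all 3 WAS with all 3 control libraries, the quasi-likelihood test of edgeR called 380 of 15239 genes that differed by 1.5-fold or more with a p, before adjustment, below 0.05, and of these 277 were higher and 103 lower in WAS. With limma on quantile-normalized values the split was 201 higher and 151 lower. Among the higher calls, 1.82% of the genes tested, were 38 of the 43 genes. The rule used these libraries, and nothing is read from that count. Prph, Spink8, Lefty2, Vwa7 and Grp were not called. At an adjusted p under 0.05 edgeR called 0 genes, beside 1104 at an unadjusted p under 0.05, and DESeq2 called 22, 2 of them among the 43. With the replicate number as a block edgeR called 49, 10 of them among the 43. Both fits were over the 15239 genes, and nothing is read from these counts of the 43 either. Without WAS replicate 2 edgeR called 491 genes at an adjusted p under 0.05, and the higher ones, 1.42% of the genes tested, included 41 of the 43, a count that the choice of the genes fixes in large part and from which nothing is read. For Irx3, the 3 WAS libraries gave 8.62 ± 7.23 CPM (SD, n = 3) and the controls 1.62 ± 0.808 CPM (SD, n = 3).

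The positions of the genes were not used by the rule. On the mouse genome build GRCm38 (mm10), 41 of the 43 genes were annotated as protein coding, and they lay on 17 chromosomes. Chromosome 8 held 7 of them (Agt, Calb2, Chrna6, Cpne7, Crnde, Irx3 and Irx5), 16.3% of the genes beside 5.18% of the genes tested. There were 7 pairs of the genes within 1 Mb of each other, involving 11 genes, and no other protein-coding gene lay between the members of any pair. The distance of 1 Mb was set after the values were seen, and within 500 kb there were 4 pairs, involving 8 genes. Irx3 (chr8:91798525-91802067, minus strand), Crnde (chr8:92326033-92356120, minus strand) and Irx5 (chr8:92357625-92376286, plus strand) formed one group. Irx1 (chr13:71957921-71963723, minus strand) and Irx2 (chr13:72628820-72634198, plus strand) were 665096 bases apart. Tfap2d (chr1:19103022-19166346, plus strand) and Tfap2b (chr1:19208914-19238576, plus strand) were 42567 bases apart. The remaining pairs were the overlapping genes Arhgap9 with Gli1 and Vwa7 with Sapcd1. Within the Iroquois clusters, expression of Irx4 and Irx6 was at or near 0 in every library while their neighbours followed the rule.

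The 3′ ends, from which QuantSeq reads come, did not stand apart in composition. The last 500 bases of the transcripts had a median GC content of 45.8%, ranging from 25% in Mab21l2 to 56.6% in Fibcd1, beside a median of 43.6% over the tested genes. The median transcript length was 2813 bases, beside 3354 bases. Of the 43 genes, 21 overlapped another annotated gene, 17 of them one on the opposite strand. The share over the tested genes was not counted, so that these numbers do not mark the set.

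RefSeq promoters were at hand for 24 of the genes, as 30 windows of 300 bases, and were read beside 32851 windows of all genes. Letters were searched on both strands, and the motifs may overlap one another. TAATTA was in 4 of the 30 windows (13.3%) and in 5.29% of all windows, and the 4 belong to Barhl1, Bnc2, Slc17a6 and Uncx. GGGCGG was in 15 windows, beside 35.7% of all windows, TATAAA in 7 (23.3%) beside 13.6%, and TGACGT in 4 (13.3%) beside 7.51%. TAATGA was in 3 windows, beside 9.78% of all. CCAAT was in 9 windows beside 37.4%, CAGCTG in 4 (13.3%) beside 16.3%, AGATAA in 2 (6.67%) beside 11.2% and CACGTG in none beside 7.15%. With 30 windows each count rests on few sequences, and a match describes letters, not a bound site. The median GC content of the windows was 56.3%, beside 52.7% over all windows.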

How the data were processed

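RNA of 6 forebrain hemispheres, 3 labelled WAS and 3 labelled control, was analysed. The authors aligned the reads with Bowtie2 and deposited raw read counts per gene, made with bedtools from unique and multiple alignments, and per the labels the build was mm10. The methods of the study mention no molecular identifiers. Here, CPM was the count divided by the library total, without further scaling. The ribosomal RNA entry Rn45s took 4.96 to 7.32% of the total. The deposited counts were not normalized, and quantile normalization was applied here for the filter and for the limma alternative. Genes whose quantile-normalized counts, with 1 added and on the log2 scale, averaged 2 or more were tested with edgeR 4.0.16, with TMM scaling and Benjamini-Hochberg adjustment, in R 4.3.3. The p-values rest on 3 mice per group.

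The genes, the lists and the tests were chosen with earlier results of these data known. Lhx1os was treated as an Lhx gene. Genes in a list, the 15 with the highest level, the 15 with the largest ratio, the 5 on either side of the threshold and those sharing a family were to be named. The rest and the role groups were added after their values were seen, as were the promoters shown and the distance of 1 Mb for neighbours. Positions, transcript ends and overlaps are from GENCODE on GRCm38, on which all 43 genes and 99.1% of tested genes matched. Alternatives were DESeq2 1.42.0, limma 3.58.1, total-count scaling, other filters, a replicate block, other thresholds and leaving out each library. The code was checked on simulated counts.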

Additional observations from a re-analysis of the deposited data

How the results depend on the processing

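Every one of the 43 genes kept a higher fitted level in WAS than in control in each fit in which it was tested, and no direction reversed, as the rule makes likely. The number of genes that differed by 1.5-fold or more with a p, before adjustment, below 0.05 was 264 to 825 when each library was left out in turn, against 380 with all, and only leaving out WAS replicate 2 moved it by over 1.5 times (825). Of the 43 genes, 38 were called with all libraries and 23 to 43 with 1 library left out. The lowest values were 24 when WAS replicate 1 was left out, 24 for WAS replicate 3 and 23 for control replicate 2. With limma the count was 23, among 352 genes called of 15239 tested. With a filter of at least 20 counts in 3 libraries, where fewer genes were tested, it was 19 of 21, among 263 called of 12988. The rule used these libraries, and nothing is read from these counts of the 43 genes. At an adjusted p under 0.05 the number of all genes called was 0 with edgeR, 22 with DESeq2 and 0 to 491 with 1 library left out, 491 being without WAS replicate 2.

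The rule found 43 genes, 58 with a minimum of 1 CPM, 23 with a minimum of 5 CPM, 118 with a ratio of 1.5 and 21 with a ratio of 3. With 1 library left out it found 47 to 94, with 87 without WAS replicate 1 and 94 without WAS replicate 3, and these sets contain the 43 by construction, since a condition is removed. TMM scaling gave 42 genes, all of them among the 43, and a total without Rn45s gave 44, which held the 43. The median log2 ratios between WAS replicates 1 and 3, and between WAS replicate 2 and the controls, moved by less than the spread between control libraries under every alternative tried. With a distance of 500 kb, the value first used, 4 neighbouring pairs were found in place of 7. A replicate block gave 417 of 15239 genes at the first criteria, with 38 of the 43, and 49 at an adjusted p under 0.05, with 10 of the 43. Nothing is read from these counts of the 43. The correlations of the deviations of libraries with the same number were 0.07, 0.08 and 0.09, and although each library correlated best with its own number, the libraries were not treated as paired. The cause of these changes was not tested. Counts were low, with 19 of the 43 genes under 5 CPM even in WAS replicates 1 and 3.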

Other observations

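WAS replicates 1 and 3, which shared the 43 genes, differed in 2 markers of serotonin neurons. Slc6a4, the serotonin transporter, had 14 counts in WAS replicate 1, 97 in WAS replicate 3 and none in any of the other 4 libraries. Tph2, the neuronal enzyme of serotonin synthesis, had 7, 3 and 102 counts in the WAS libraries and 13, 7 and 7 in the controls. Both genes were thus highest in WAS replicate 3, and neither met the rule. In WAS replicate 1 Slc6a4 was above the other 4 libraries but, at 1.39 CPM, under the minimum of 2 CPM. Tph2 did not exceed the controls in WAS replicate 1. They were singled out after their values were seen, and no test was made. The whole list of serotonin neuron markers summed to 35.4, 37.6 and 71.7 CPM in the WAS libraries and to 33.4, 35.5 and 31.3 CPM in the controls, and of its 6 genes at 2 CPM or more, 2 were higher in both WAS replicates 1 and 3 than in every other library and 1 was lower.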
